A study of Mus musculus with 2 samples.

Results

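Interferons reach the cell nucleus through a short chain of proteins, and the 10 genes described here are its first steps: Ifng, which encodes interferon-gamma, the chains of the receptors for the 3 interferon types, and the Janus kinases bound to those chains. The genes are Ifng, Ifngr1 and Ifngr2 (receptor of interferon-gamma), Ifnar1 and Ifnar2 (type I receptor), Ifnlr1 and Il10rb (type III receptor), and Jak1, Jak2 and Tyk2. They were chosen by name, with earlier results of these arrays known but by no measured value, by matching the RefSeq accession of each array probe to its gene symbol. This gave 14 probes for the 10 genes, out of 56593 probes and 22909 named genes on the arrays, and each member had at least 1 probe. 7 of the genes had 1 probe only.

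RNA of whole colon came from C57BL/6 mice, aged 8 weeks, of 2 genotypes, Villin-Cre and Villin-Cre; EP4flox/flox (EP4 cKO). The promoter of Villin drives Cre recombinase in the intestinal epithelium of both genotypes, and in the EP4 cKO mice Cre removes the floxed part of Ptger4, which encodes the prostaglandin E2 receptor EP4. The labels name no treatment. Each genotype was measured on 1 Agilent array with 1 colour (Cy3), and the labels describe its RNA as a combination of 3 colon pools, so no difference here has a replicate check, no test was made and every value describes these 2 arrays only. In whole colon, fewer cells of a type and less RNA per cell cannot be told apart.

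Interferon-gamma is made mainly by T cells, NK cells and other innate lymphocytes. It binds Ifngr1 and Ifngr2, whose kinases Jak1 and Jak2 phosphorylate transcription factors of the STAT family, which bind the gamma-activated site (GAS) of their targets. Type I interferons bind Ifnar1 and Ifnar2, type III interferons bind Ifnlr1 and Il10rb, and both signal through Jak1 and Tyk2 to a complex that includes Stat2 and Irf9, which binds the interferon-stimulated response element (ISRE). In the gut, Ifnlr1 is found chiefly on epithelial cells and neutrophils, while Il10rb is also a chain of the receptors for interleukins 10 and 22.

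The sequences below show where the core letters of these 2 elements occur near gene starts, first in the members and then in listed targets. They come from the RefSeq promoter windows of the assembly GRCm38.p6, which reach from 250 bases before to 50 bases after the annotated start of a gene, and the stretches were chosen after the matches had been seen. Windows were given for 9 of the 10 members, all except Il10rb. The letters searched were, for the core of the ISRE, GAAA repeated after any 2 bases, on both strands, and, for the core of the GAS, TTCNNNGAA, which is its own reverse complement. Capitals mark the matches. The stretches of Ifng (chr10:118440796-118440895), Ifnar2 (chr16:91372533-91372632) and Ifnar1 (chr16:91485119-91485218) hold the only GAS cores found among the members. That of Jak2 (chr19:29251703-29251802) holds no match and is shown because Jak2 had the highest ratio of the members. These 4 stretches are on the plus strand.
Ifng: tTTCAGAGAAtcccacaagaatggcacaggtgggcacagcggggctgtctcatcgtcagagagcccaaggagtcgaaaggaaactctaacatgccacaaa
Ifnar2: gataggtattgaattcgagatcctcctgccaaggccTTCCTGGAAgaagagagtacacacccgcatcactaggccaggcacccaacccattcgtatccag
Ifnar1: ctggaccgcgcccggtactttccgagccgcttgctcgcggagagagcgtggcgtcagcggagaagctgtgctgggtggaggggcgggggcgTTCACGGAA
Jak2: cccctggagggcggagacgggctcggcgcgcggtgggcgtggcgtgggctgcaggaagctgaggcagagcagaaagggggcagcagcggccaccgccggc

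For the targets, Tgtp2 (chr11:49064243-49064322, minus strand), Igtp (chr11:58199476-58199555, plus strand) and Irgm2 (chr11:58214867-58214946, plus strand), all of them interferon-inducible GTPases, are shown because a GAS core is followed by an ISRE core after 2 bases. Isg15 (chr4:156200849-156200928, minus strand), a ubiquitin-like modifier, has 3 overlapping ISRE cores. Gbp2 (chr3:142620573-142620652, plus strand), a guanylate-binding protein, has the ISRE core on the other strand, and Irf1 (chr11:53769889-53769968, plus strand), a transcription factor, has a GAS core alone.
Tgtp2: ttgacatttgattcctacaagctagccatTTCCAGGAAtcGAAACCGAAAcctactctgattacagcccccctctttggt
Igtp: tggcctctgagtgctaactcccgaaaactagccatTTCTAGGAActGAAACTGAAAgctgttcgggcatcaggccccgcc
Irgm2: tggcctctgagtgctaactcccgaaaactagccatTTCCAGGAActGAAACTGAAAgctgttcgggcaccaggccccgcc
Isg15: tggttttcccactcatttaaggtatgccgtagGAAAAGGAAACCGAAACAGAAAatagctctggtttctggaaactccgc
Gbp2: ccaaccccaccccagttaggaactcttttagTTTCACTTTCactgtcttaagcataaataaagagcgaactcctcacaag
Irf1: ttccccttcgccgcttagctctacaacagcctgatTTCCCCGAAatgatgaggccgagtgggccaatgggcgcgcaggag

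Shares are given per gene, and a gene with several windows counts as a match if any of them holds the letters. The ISRE core occurred in 1079 of 27025 genes with a window (3.99%), in 12 of 27 interferon-gamma targets (44.4%), in 14 of 29 type I and III targets (48.3%) and in 0 of 9 members. The GAS core occurred in 9.55% of all genes with a window, in 10 of 27 interferon-gamma targets (37%), in 5 of 29 type I and III targets (17.2%) and in 3 of 9 members (33.3%). Over all 32851 windows, the shares were 3.44% for the ISRE core and 8.3% for the GAS core. In Ifng the GAS core lay from -249 to -241, in Ifnar2 from -214 to -206, and in Ifnar1 across the start, from -5 to 4. The match of Ifnar2 also had the stricter letters TTCCNGGAA, which 1.35% of all genes with a window hold. The stretches of Igtp and Irgm2 differ at 2 of 80 positions, so they are not separate examples. The shares also count Ifit3 and Ifit3b, Oas1a and Oas1g, and Tgtp1 and Tgtp2 as separate genes, although their sequences around the matches are much alike. The windows of the members differed widely in base composition, from 46% G and C in Ifng to 74.3% in Ifngr2 and 81% in Jak2. A match is a description of letters and not a binding site, and a window without a match says only that these letters are not in these 300 bases.

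**Figure D1:**
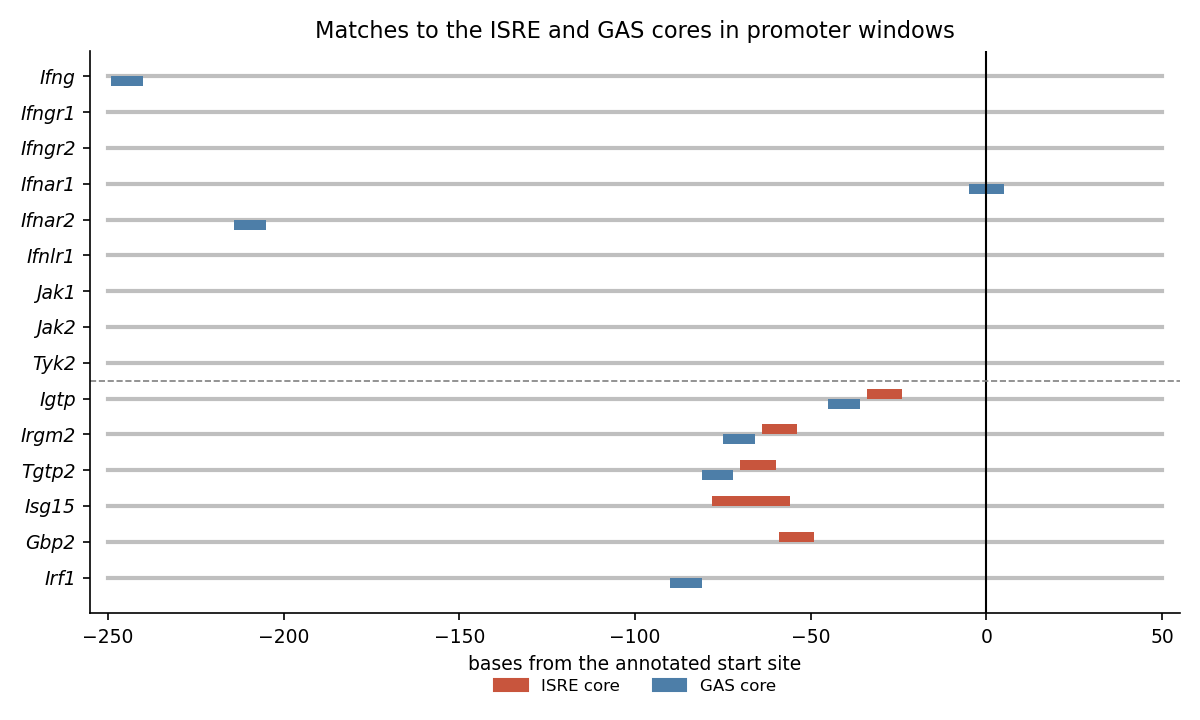
Positions of the ISRE core (red) and the GAS core (blue) in the promoter windows, in bases from the annotated start site (vertical line). Windows of the 9 members are above the dashed line, with 3 GAS cores and 0 ISRE cores, and those of 6 printed targets are below it.

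The intensities were scaled on each array to a trimmed mean of 2500, as in the methods of the study, and the scaled values are called signals here. Each array held 62976 spots, and the scanner software flagged 45.4% of the gene probes as well above background on the Villin-Cre-labelled array and 51.6% on the EP4 cKO-labelled array. The error given with a signal is the error that this software assigns to the spot, which covers neither the mice nor the hybridization. Ratios are EP4 cKO over Villin-Cre on the log2 scale. If a probe passed this flag on 1 array only, the signal of the array where it failed was raised to the lowest that passed there (125 for Villin-Cre, 57.8 for EP4 cKO), unless already higher. The ratio is then a bound, and a bound that did not exceed 1 was set to a log2 ratio of 0. Where a gene had several probes, the brightest stands for it. The median log2 ratio was -0.10 over 14669 genes with a value. Signals are compared between arrays for the same probe only, since probes differ in brightness for the same amount of RNA. Ptger4, the targeted gene, had a signal of 6227 on the Villin-Cre-labelled array and 5661 on the EP4 cKO-labelled array at its brighter probe (log2 ratio -0.14), and 393 and 592 at its dimmer probe (0.59), so the directions below rest on the labels of the arrays. Whether these probes lie in the deleted part was not examined here.

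The receptors, the kinases and Ifng were all within 2-fold between the arrays, whereas most interferon targets were far higher on the EP4 cKO-labelled array. Of the 10 members 0 were over 2-fold higher, beside 4.86% of all genes, and 0 were over 2-fold lower, beside 7.87%. The median log2 ratio of the members was 0.26, with 7 above 0 and 3 below, beside the median of -0.10 over all genes. It was 0.31 over the 6 receptor chains and 0.17 over the 3 kinases. The members ran from -0.55 (Ifnar1) to 0.86 (Jak2).

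Ifng, the only ligand among the members, lay close to the limit of detection. Its signal was 149 ± 29.2 on the Villin-Cre-labelled array and 177 ± 21.2 on the EP4 cKO-labelled array, both flagged as well above background. The log2 ratio of 0.25 was smaller than its scanner error of 0.33. Of all genes, 21.0% had a ratio at least as high.

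Markers of T cells and NK cells, which make interferon-gamma, were detected in part. Of 21 T cell and NK cell markers, 20 had a value, of which 5 passed 2-fold upward and 1 downward, and the median log2 ratio was 0.51. Their summed signal was 38142 on the Villin-Cre-labelled array and 42943 on the EP4 cKO-labelled array, of which Cd247 alone gave 17305 and 12254. The 3 with the highest signal were Cd247 (zeta chain of the T cell receptor complex; log2 ratio -0.50), Cd4 (0.18) and Ccl5 (0.69). Ncr1, an NK cell receptor, did not pass the background flag on any array. Cd8a, Cd5, Klrb1c, Klrk1, Gzmb and Cxcr3 did not pass it on the Villin-Cre-labelled array, where 14 of the 21 did. The 5 markers over 2-fold higher, singled out after their values were seen, were Gzma (476 and 5795, 3.60), Gzmb (a bound of 2.19), Cd8b1 (1.44), Nkg7 (1.42) and Cd3g (1.28), and the lower one was Prf1 (1269 and 284, -2.16). Gzma, Gzmb, Nkg7 and Prf1 encode proteins of cytotoxic granules. Cd3d (-0.79) and Cd3e (-0.10), which encode partners of Cd3g, and the T cell kinase Lck (-0.03) were within 2-fold at their brightest probes. Other probes gave different values. That of Cd3d went the other way (650 and 1215, 0.90), that of Cd3e had -0.79 and that of Cd4 a bound of -1.31. The part of these cells in the level of Ifng was not tested.

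The genes that induce interferon-gamma gave few measurable values. Of 17 such genes, 10 had a value, of which 4 gave no fold and were set to a log2 ratio of 0. Among the 10, 0 were over 2-fold higher and 1 was over 2-fold lower. That gene was Il18, a cytokine that acts on T cells and NK cells, with 72176 on the Villin-Cre-labelled array and 25559 on the EP4 cKO-labelled array, 2.82-fold lower. Il15, a growth factor of NK cells, had -0.62 and its receptor chain Il15ra had -0.74, each at its brightest probe. The dimmer probe of Il15 had -0.30. Those of Il15ra had -0.57 and 0.38, so its probes did not go the same way. The highest ratios were those of Il27 (0.72), of the transcription factor Tbx21 (a bound of 0.31) and of the receptor chain Il12rb1 (a bound of 0.11). Il12a, Il12b, Il23a, Il2, Il18r1, Il18rap and Eomes were not well above background on either array.

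Both chains of the interferon-gamma receptor were slightly brighter on the EP4 cKO-labelled array. Ifngr1, which binds the ligand and Jak1, had a signal of 43697 ± 4370 on the Villin-Cre-labelled array and 52397 ± 5240 on the EP4 cKO-labelled array, a 1.199-fold difference (log2 ratio 0.26, scanner error 0.20). Ifngr2, which binds Jak2, had 18043 ± 1805 and 23090 ± 2309, a 1.28-fold difference (0.36, scanner error 0.20). The ratios of the 2 chains differed by 0.09, with an error of 0.29.

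The chains of the type III receptor gave almost equal ratios, both above 0. Ifnlr1, the chain that binds interferon-lambda, had a signal of 2711 ± 272 on the Villin-Cre-labelled array and 3700 ± 370 on the EP4 cKO-labelled array, a 1.36-fold difference (0.45, scanner error 0.20). Il10rb, the shared chain, had 17851 ± 1785 and 24499 ± 2450, a 1.37-fold difference (0.46, scanner error 0.20). Of all genes, 13.2% had a ratio at least as high as that of Ifnlr1 and 13.0% one at least as high as that of Il10rb.

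In the type I receptor neither chain was higher at its brightest probe. Ifnar1 had a signal of 5095 ± 511 on the Villin-Cre-labelled array and 3478 ± 348 on the EP4 cKO-labelled array, 1.47-fold lower (-0.55, scanner error 0.20). Its probes did not go the same way. The next probe had 343 ± 45.1 and 419 ± 44.0 (0.29, scanner error 0.24), which differs from the brightest by 0.84 with an error of 0.32. The dimmest had 32.8 on the Villin-Cre-labelled array, not well above background, and 62.4 on the EP4 cKO-labelled array, which gives no fold. All 3 probes are assigned to the same RefSeq transcript. Ifnar2 had 355 ± 46.0 and 350 ± 37.5 at its brighter probe, a log2 ratio of -0.02 with a scanner error of 0.24, and 51.9 (not well above background) and 85.8 at its dimmer probe, again without a fold. The ratio of Ifnar1 was below that of Ifnar2 by 0.53, with an error of 0.32.

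Of the 3 kinases, Jak2 was higher, Jak1 differed by less than its scanner error and Tyk2 was lower on the EP4 cKO-labelled array. Jak2 had a signal of 1324 ± 136 on the Villin-Cre-labelled array and 2403 ± 241 on the EP4 cKO-labelled array, a 1.82-fold difference (0.86, scanner error 0.21), and 6.22% of all genes had a ratio at least as high. Its dimmer probe had 136 (not well above background) and 180, a 1.33-fold difference (0.41, scanner error 0.38). The Villin-Cre signal of that probe was not raised, so this is the ratio of the signals themselves and not a firm minimum. Jak1, which serves all 3 interferon receptors, had 8320 ± 833 and 9381 ± 938 (0.17, scanner error 0.20). Tyk2, the partner of Jak1 at the type I and type III receptors, had 1421 ± 145 and 1142 ± 115, 1.24-fold lower (-0.31, scanner error 0.21). Jak2 exceeded Tyk2 by 1.18 with an error of 0.29, and Jak1 by 0.69 with an error of 0.29. Jak3, the Janus kinase that binds the common gamma chain and none of these receptors, had 352 and 426 (0.28).

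**Figure D2:**
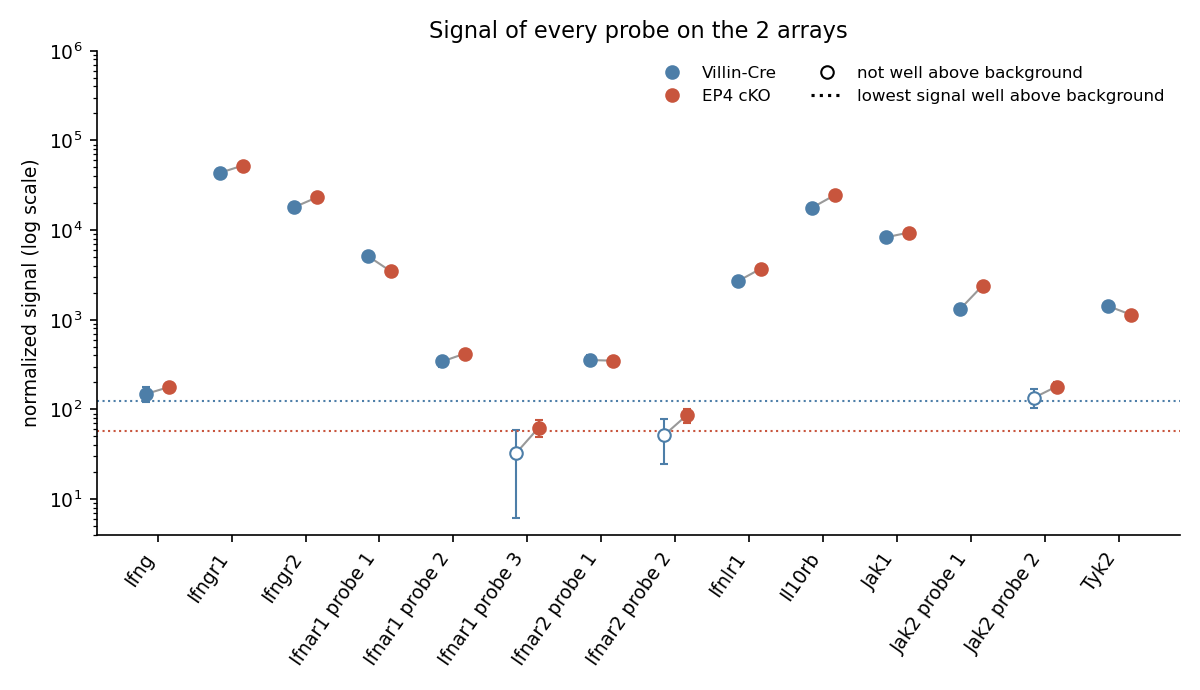
Normalized signal (log axis) of each of the 14 probes on the Villin-Cre-labelled array (blue) and the EP4 cKO-labelled array (red), with bars for the error the scanner software gives a spot and lines joining the same probe. Open points were not well above background, which holds for 3 probes on the Villin-Cre-labelled array, and dotted lines are the lowest signals well above background (125 and 57.8).

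Ordered by ratio, the members were Jak2, Il10rb, Ifnlr1, Ifngr2, Ifngr1, Ifng, Jak1, Ifnar2, Tyk2 and Ifnar1. From Il10rb to Ifnar1, each gene differed from the next by less than the error of their difference, and the step from Jak2 to Il10rb was 0.40 with an error of 0.29. Il10rb exceeded Ifnar1 by 1.01 and Ifngr2 exceeded it by 0.91, each with a scanner error of 0.29, but against the next probe of Ifnar1 these differences were 0.17 and 0.07, each with an error of 0.32. These 3 genes and Ifnar2 lie in a row on chromosome 16, in the order Ifnar2, Il10rb, Ifnar1 and Ifngr2 with no other protein-coding gene between them in RefSeq. Their log2 ratios in that order were -0.02, 0.46, -0.55 and 0.36 at the brightest probes, with 0.29 at the next probe of Ifnar1.

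The scaling moved the level of the ratios and left Jak2 the highest and Ifnar1 the lowest of the members. Under scaling to the 75th percentile the median of all genes rose by 0.10, under loess by 0.14 and under normexp with quantile normalization by 0.10, and Jak2 came to 1.02, 1.01 and 0.91. It was thus just past 2-fold with the 75th percentile, beside 6.39% of all genes, and with loess, beside 7.61%. At a threshold of 1.5-fold without another scaling, Jak2 was the only member higher, beside 9.84% of all genes. Ifnar2 changed sign, from -0.02 to 0.13, 0.25 and 0.18. Ifng, which is dim, came to 0.78 under loess, next to Jak2. Scaling to the 239 E1A spots, which are made to read added control RNA (the amount added to these samples is not given in the sources used here), raised the median of all genes by 0.96, to 0.86, and put 8 members and 38.7% of all genes over 2-fold higher. Ifnar1 (0.48) and Tyk2 (0.72) were above 0 on that scale. Relative to the median of all genes, 8 members lay above it and Ifnar1 and Tyk2 below it under all 5 scalings. Jak2 lay 0.90 to 1.03 above this median, and Ifnar1 between -0.50 and -0.38. With the mean of all probes Ifnar1 had -0.09, which is 0.02 above the median, and Jak2 had 0.63. With every dim probe kept at its own signal Tyk2 lay 0.05 above the median.

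**Figure D3:**
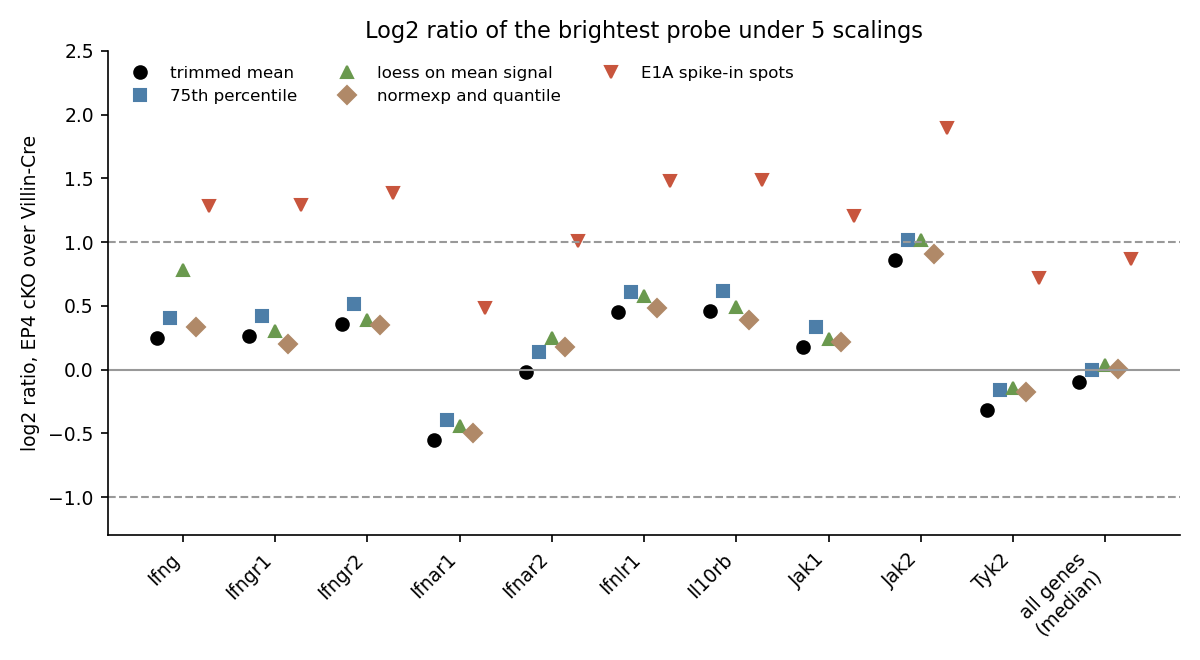
Log2 ratio of the brightest probe of each member, and the median of all genes, under 5 scalings (symbols), with 2-fold as dashed lines. Jak2 had the highest ratio under each of the 5, from 0.86 to 1.89, and Ifnar1 the lowest, from -0.55 to 0.48.

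Targets at the end of the chain had much higher ratios than the receptors at its start. Of 43 listed targets of interferon-gamma, 39 had a value, 36 were over 2-fold higher and 1 was lower on the EP4 cKO-labelled array, with a median log2 ratio of 3.14. Iigp1, another of the GTPases, was the highest, with a bound of 7.90 (33.3 on the Villin-Cre-labelled array, not well above background, and 30017 on the EP4 cKO-labelled array). Next came H2-Aa (7.30), Tgtp2 (6.99), Cd74 (6.99) and H2-DMb1 (6.41), of which all but Tgtp2 serve antigen presentation on MHC class II. At the other end lay Serping1, the inhibitor of complement C1 (-2.13), Irf8, a transcription factor of myeloid cells (0.59), and Lap3, an aminopeptidase (0.96). Of the other genes with printed stretches, named for their sequence and not by rank, Gbp2 had 5.73, Igtp 4.73, Irgm2 3.45 and Irf1 1.36.

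Of 40 listed targets of type I and III interferons, 37 had a value, 34 were over 2-fold higher and 0 lower, with a median of 2.21. The highest were Oas2, which senses double-stranded RNA (208 and 14046, 6.07), Ifit1, which binds foreign RNA caps (a bound of 6.07), and Ifit3 (5.55), followed by Ifi27l2a and Isg15 (both 5.53). Genes with a bound, such as Ifit1, Usp18 (5.42) and Ifi44 (5.04), may belong higher, so this order is not fixed. Ifi27 (0.53), the RNA-dependent kinase Eif2ak2 (0.67) and Trim25 (0.71), a ubiquitin ligase, were the lowest. Over both lists, 71 of 76 targets had a ratio above that of Jak2, the highest of the members. Targets induced by one interferon type overlap with those of another, so the lists do not tell the types apart. These lists were drawn up with the earlier results of these arrays known and are not independent evidence of a direction.

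**Figure D4:**
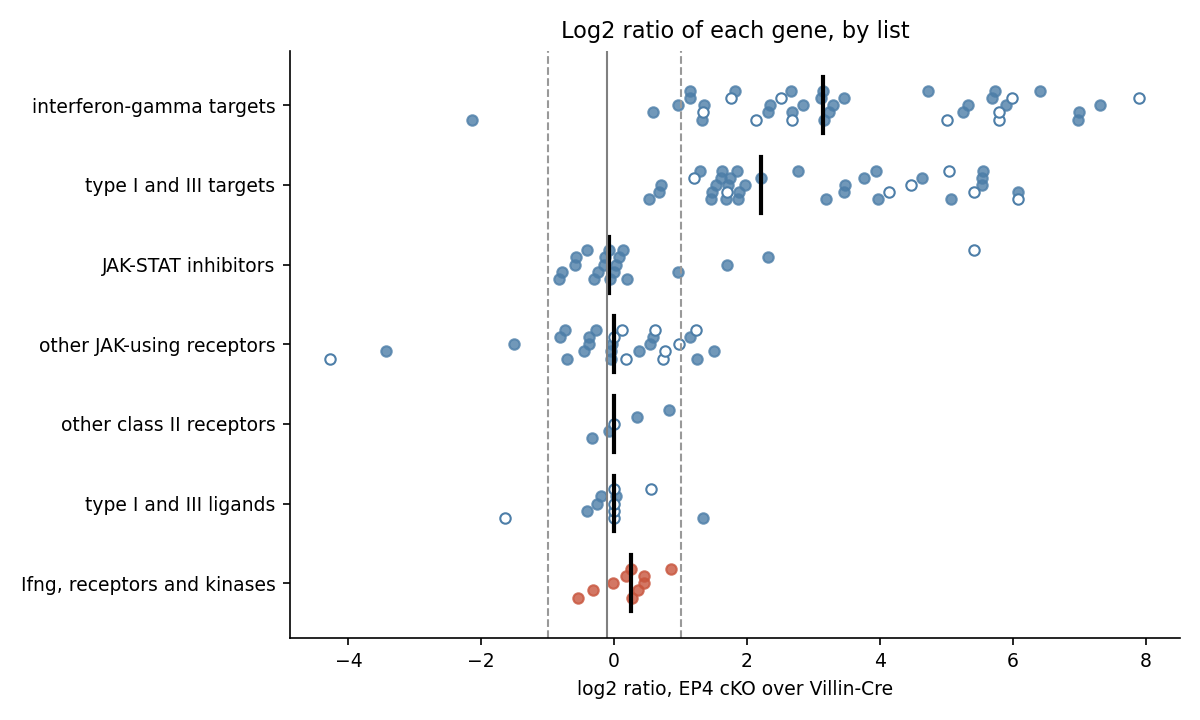
Log2 ratio of each gene with a value (points, open where the ratio is a bound) in the list of members (red) and 6 pathway lists (blue), with the median of each list as a black bar, 2-fold as dashed lines and the median of all genes (-0.10) as a grey line. The members lie between -0.55 and 0.86, and the medians of the target lists at 3.14 and 2.21.

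Between the kinases and the targets, Stat2 and Irf9, parts of the complex that binds the ISRE, were over 2-fold higher. Stat2 had a signal of 2877 on the Villin-Cre-labelled array and 10562 on the EP4 cKO-labelled array (1.88), and Irf9 had 4563 and 15348 (1.75). Both are also in the list of type I and III targets. Stat3 (0.15), Stat6 (-0.04), Stat5a (-0.11) and Stat5b (-0.46), which serve mainly other cytokines, were within 2-fold, and Stat4 had 32.0 (not well above background) and 100, which gives no fold.

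Of 20 inhibitors of the chain, 3 were over 2-fold higher and 0 lower, with a median of -0.07. They were Usp18, which binds Ifnar2 and keeps Jak1 from it (136, not well above background, and 5807, a bound of 5.42), Socs1, which blocks the Janus kinases (361 and 1802, 2.32), and Socs3, which acts mainly on receptors of the interleukin 6 type (1214 and 3925, 1.69). Ptprc, the phosphatase CD45 of leukocytes, had 0.97 and Socs4 0.19. Socs5 (-0.83), Cbl (-0.78) and Socs2 (-0.59) were the lowest. Usp18 and Socs1 are in the target lists as well.

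Of 20 listed genes for ligands of the type I and III receptors, 17 had a probe, and 6 of these were not well above background on either array. A further 4, counted below among those with a value, gave no fold and were set to a log2 ratio of 0. Among the 11 with a value, 1 was over 2-fold higher, Ifnl3, a ligand of Ifnlr1 (281 and 710, 1.34), and 1 was over 2-fold lower, Ifnb1 (181 and 11.47, the latter not well above background, a bound of -1.65). The next highest were Ifna11 (a bound of 0.55) and Ifna5 (0.03), and the next lowest Ifna14 (-0.40) and Ifna1 (-0.26). The Ifna genes are near-identical copies, so a probe may take up RNA of several of them.

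Of the class II cytokine receptor chains that are related to the members, 5 of 6 had a value and 0 passed 2-fold, with a median of 0.14 over the 4 above background on both arrays. Il22ra1, which pairs with Il10rb to bind interleukin 22, had 5035 and 6405 (0.35), Il20rb had 0.83, F3 (tissue factor) -0.07 and Il22ra2, a soluble receptor of interleukin 22, -0.33. Il10ra, the partner of Il10rb for interleukin 10, had 55.4 (not well above background) and 95.4, which gives no fold. Of 5 ligands of the interleukin 10 family only Il24 had a value (201 and 92.8, -1.11). Among 27 other receptor chains with a value that signal through Janus kinases, 4 were over 2-fold higher and 3 lower. The median was -0.17 over the 18 above background on both arrays. These counts depended on the setting, with 9 higher and 3 lower under loess and 14 and 2 with the E1A spots. They were 2 and 3 under normexp with quantile normalization, and 9 and 5 of 30 with dim probes kept. Over every chain with a value, both lists had a median of 0 that belongs to a gene without a fold, and under loess it was 0.44 for the class II chains and 0.24 for the others. Il4ra (2.83-fold higher), Crlf2 (log2 ratio 1.25), Il31ra (a bound of 1.23), Il2rb (1.13) and Osmr (a bound of 0.98) were the highest, and Lifr (a bound of -4.27), Prlr (-3.43) and Ghr (2.84-fold lower) the lowest.

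Of 8 genes for chaperones of the kinases and for receptor uptake, 0 passed 2-fold, with a median of -0.26. Hsp90ab1 (-0.57), Hsp90aa1 (-0.24) and Cdc37 (-0.34), which fold Janus kinases, were below the median of all genes. Rack1 had -0.34, Prmt5 -0.29 and Clta -0.23, and Cltc and Dnm2, which serve endocytosis, both had 0.02.

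Markers of the tissue moved unequally between the arrays. The 12 epithelial markers were all well above background, with 1 over 2-fold higher and 0 lower, a median of 0.21 and a summed signal of 2799642 on the Villin-Cre-labelled array and 3285085 on the EP4 cKO-labelled array. The brightest, Lgals4, Krt8 and Krt19, had -0.24, 0.05 and 0.32. Of 7 fibroblast markers, 5 had a value and all 5 were over 2-fold lower, with a summed signal of 13066 and 318 and Dcn (-5.77), Col1a2 (-5.03) and Col3a1 (a bound of -4.81) the brightest. The summed signal of 7 markers shared by leukocytes was 9975 and 15283, with a median log2 ratio of 0.64 and 2 of 6 over 2-fold higher. That of 10 macrophage and dendritic cell markers was 55488 and 73312 (median 0.17), of which Itgam alone gave 49347 and 68597. Of the 8 with a value, 2 were over 2-fold higher, Itgax (1.73) and Mpeg1 (a bound of 1.37), and 0 lower, with Csf1r the lowest at -0.79, while Adgre1 and Lyz2 were not well above background on either array. For smooth muscle it was 32703 and 50152 (0.50), with Cnn1, singled out as the only gene of that list past 2-fold, at -2.73. Only 2 of 6 markers of endothelium, 2 of 6 of enteric neurons and glia and 3 of 7 of B cells and plasma cells had a value, and the sums over all of these markers, dim ones included, were 646 and 534, 3464 and 1576, and 436 and 576. The part of these cell types in the ratios of the members was not tested.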

How the data were processed

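RNA of whole colon was hybridized to 1 array per genotype. The scanner output that the authors deposited was made with Feature Extraction, version 12.0.3.1 by the file headers and 11.5.1.1 by the submitters' processing notes. The values used are the deposited intensities of the processed signal, with background subtracted and trends removed by that software, not scaled between arrays, and its flags and errors.

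Control spots and outlier spots (147 for Villin-Cre, 126 for EP4 cKO) were removed, and repeated spots of a probe averaged. Signals were multiplied by 3.45 (Villin-Cre) and 2.68 (EP4 cKO) to reach a trimmed mean of 2500 after removal of 2% of the probes at each end. No spot was saturated. Among 289 probes with repeated spots, the median SD of the log2 ratio was 0.035, which covers 1 hybridization only. RefSeq accessions matched 58.3% of the probes to genes of GRCm38.p6. The array grid refers to another assembly, so only coordinates of the RefSeq promoter windows are given. A median, count or rank over a list includes bounds as they stand, so a gene with a bound may belong further from 0 than its rank.

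With 1 array per genotype there was no test, and the number of arrays limits the precision. The members and lists were chosen with earlier results of these data known. All members and their probes are named, as is every gene with a value in lists of up to 8 genes, and in longer lists the 5 highest (fewer where ratios tie at 0) and 3 lowest ratios. In the T cell, epithelium and fibroblast lists these are the 3 brightest, and other cell type lists are given by their sums. Genes with a pattern like that of a member are not named, because 2 arrays give no pattern. Other genes are named where they are not above background, or were singled out after their values were seen. The values of 1 listed gene are not reported here.

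The alternatives were scaling to the 75th percentile, loess on mean signal (span 0.3), normexp (offset 50) with quantile normalization, E1A spots, dim probes kept, only probes above background on both arrays, the mean of probes, thresholds of 3-fold and 1.5-fold, and stricter motif letters. The steps were tested on simulated data. Python 3.11.15, numpy 2.4.6, pandas 2.3.3, statsmodels 0.14.6, matplotlib 3.10.9, R 4.3.3 and limma 3.58.1 were used.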

Additional observations from a re-analysis of the deposited data

How the results depend on the processing

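The number of members more than 2-fold lower was 0 under all alternatives, and the number more than 2-fold higher was 0 except for 1 (Jak2) under scaling to the 75th percentile, under loess and at a 1.5-fold threshold, and 8 under scaling to the E1A spots. The median log2 ratio of the members was 0.41 with the 75th percentile, 0.35 with loess and 1.29 with the E1A spots, against 0.26. For the interferon-gamma targets the median of 3.14 became 3.30 (75th percentile), 3.23 (loess), 3.00 (normexp with quantile normalization), 4.17 (E1A), 3.29 (dim probes kept) and 2.94 (mean of probes). For the type I and III targets the median of 2.21 became 2.37, 2.38, 2.004, 3.24, 2.49 and 1.97 under the same settings, and 1.92 over probes that were above background on both arrays. The number of these targets more than 2-fold lower was 1 with dim probes kept. The counts of targets more than 2-fold higher stayed within 1.5 times of 36 and 34 under every alternative. Some other counts moved more. Inducers of interferon-gamma more than 2-fold higher numbered 1 under loess, 3 with E1A and 3 with dim probes kept, against 0. For T cell and NK cell markers the 5 became 8 (75th percentile), 9 (loess), 14 (E1A), 7 (dim probes kept) and 4 (normexp with quantile normalization). Their median was 0.87 under loess, against 0.51. With stricter letters (TTCCNGGAA for the GAS, and CT after the letters of the ISRE), the GAS core was found in 1 member, 5 interferon-gamma targets and 2 type I and III targets, and the ISRE core in 0, 6 and 8. The cause of these shifts was not tested.

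No paired analysis was possible because each genotype has 1 array, and for the same reason no sample was left out. Signals close to background limit the values of Ifng, of the dimmer probes of Ifnar1, Ifnar2 and Jak2 and of many interferon ligands.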
